A study of Mus musculus with 2 samples.

Results

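Clock output genes carry the rhythm of the circadian clock to the rest of the cell. The 10 genes described here are transcription factors of that layer (Dbp, Tef, Hlf, Nfil3, Bhlhe40, Bhlhe41 and Ciart) and effectors under its control (Usp2, Upp2 and Rgs16). They were chosen by name, with earlier results of these data known. All 20 probe sets with one of these names as the only annotated gene symbol were taken. The array held 45101 probe sets and 18193 named genes. Affymetrix mouse expression arrays were used to measure messenger RNA of the whole liver. The animals of both groups were BALB/c nude mice, which lack a thymus. One group was the liver at day 3 after a 70% partial hepatectomy by surgery, labelled as active regeneration, and the other was the liver at day 0 of the same operation, labelled as the control. Each day had 1 array, so no value has a replicate and no test between the days was possible. The labels do not say how many animals a sample holds. They also do not give the hour of collection or the feeding state, and day, animal, hour and feeding cannot be told apart in this design.

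In the liver clock, the CLOCK and BMAL1 proteins bind E-box sequences and switch on their own repressors as well as output genes such as Dbp and Tef. DBP, TEF and HLF form the proline and acidic amino acid rich (PAR) family of basic leucine zipper activators, which bind D-box sequences, and NFIL3 binds the same sequences as a repressor. The PAR factors are known in mouse liver as regulators of genes of drug and bile acid metabolism. BHLHE40 and BHLHE41 (also called DEC1 and DEC2) and CIART (also called CHRONO) repress transcription by CLOCK and BMAL1.

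Part of the known control of these genes runs through short motifs. Windows from 250 bases before to 50 bases after the RefSeq start sites were searched on both strands. Sequence outside these windows was not searched, so a window without a match does not show that the gene lacks the motif. Windows were found for 9 of the 10 genes, 11 windows in all, and Bhlhe40 had no entry. The searched letters were the E-box CACGTG, the D-box as TTATGTAA or TTACGTAA, the core of the site shared by ROR and REV-ERB receptors as TAGGTCA, and the TATA box as TATAAA. None of these motifs overlapped in the windows. An E-box was found in 4 of the 11 windows, those of Ciart, Tef (both listed starts) and Bhlhe41, against 7.15% of 32851 windows of all genes. The ROR and REV-ERB letters were found in 1 of the 11, that of Nfil3, against 2.61% of all windows. The D-box letters were in none of the 11 and in 1.06% of all windows, and the TATA box was in 1, the second listed start of Upp2, against 13.6%. The windows below are shown 5′ to 3′, with matches in capitals. Ciart, Tef and Nfil3 are shown for their clock motifs, and Upp2 and Rgs16 because their signals differed most between the days.
Ciart, GRCm38.p6 chr3:95882179-95882478, minus strand: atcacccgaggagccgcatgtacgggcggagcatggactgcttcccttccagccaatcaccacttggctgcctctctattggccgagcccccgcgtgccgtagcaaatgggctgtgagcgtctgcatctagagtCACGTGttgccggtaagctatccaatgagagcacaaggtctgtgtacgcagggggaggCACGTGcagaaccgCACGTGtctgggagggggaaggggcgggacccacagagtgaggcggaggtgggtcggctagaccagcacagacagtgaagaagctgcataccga
Tef, second listed start, GRCm38.p6 chr15:81811164-81811463, plus strand: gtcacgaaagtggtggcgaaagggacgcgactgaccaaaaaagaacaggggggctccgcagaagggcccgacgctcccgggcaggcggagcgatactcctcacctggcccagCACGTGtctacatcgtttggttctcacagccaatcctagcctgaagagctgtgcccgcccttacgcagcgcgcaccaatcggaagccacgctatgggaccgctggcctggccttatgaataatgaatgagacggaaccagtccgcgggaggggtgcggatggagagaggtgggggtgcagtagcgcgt
Nfil3, GRCm38.p6 chr13:52980990-52981289, minus strand: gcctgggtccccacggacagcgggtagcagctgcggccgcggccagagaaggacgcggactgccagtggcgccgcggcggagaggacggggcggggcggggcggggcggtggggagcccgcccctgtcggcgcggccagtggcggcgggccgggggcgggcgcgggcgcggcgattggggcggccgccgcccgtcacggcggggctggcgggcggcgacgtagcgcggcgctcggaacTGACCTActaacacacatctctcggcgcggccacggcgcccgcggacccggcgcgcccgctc
Upp2, second listed start, GRCm38.p6 chr2:58754934-58755233, plus strand: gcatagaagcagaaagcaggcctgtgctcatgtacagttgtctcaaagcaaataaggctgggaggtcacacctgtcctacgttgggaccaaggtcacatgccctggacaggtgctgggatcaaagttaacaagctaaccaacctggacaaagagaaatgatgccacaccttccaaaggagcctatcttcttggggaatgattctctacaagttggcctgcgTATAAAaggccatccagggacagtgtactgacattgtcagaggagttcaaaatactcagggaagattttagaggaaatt
Rgs16, GRCm38.p6 chr1:153740103-153740402, plus strand: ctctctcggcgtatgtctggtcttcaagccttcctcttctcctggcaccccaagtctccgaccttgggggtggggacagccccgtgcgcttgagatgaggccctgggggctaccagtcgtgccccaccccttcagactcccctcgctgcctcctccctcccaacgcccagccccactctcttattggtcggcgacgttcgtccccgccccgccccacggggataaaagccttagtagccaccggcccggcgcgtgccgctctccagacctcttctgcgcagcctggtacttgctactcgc
The Ciart window held the E-box letters at 3 places, with first bases at −116, −58 and −44 relative to the start site. In the Tef window they began at −138. The Nfil3 match, which lies on the opposite strand, began at −12. The TATA box of Upp2 began at −29 from its second listed start. The Rgs16 window held none of the searched letters. These matches describe the sequences and were not tested against binding.

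Signal was lower at day 3 than at day 0 on each of the 20 probe sets of the clock output genes, 2 of them (Bhlhe41) too dim on both arrays for a ratio. Of all 34945 probe sets with 1 gene symbol, 49.5% had lower signal at day 3. The largest differences were those of the effectors Rgs16 and Upp2, followed by the activator Dbp. Signals are in the arbitrary linear units of the array software, and a common floor of 68.3, the higher of the medians of the arrays, was used as the lowest level at which a ratio was computed. At least 1 array exceeded the floor for 18 of the 20 probe sets and for 9 of the 10 genes, Bhlhe41 being the exception. The probe set of highest mean log2 signal stood for each gene. On that probe set 7 of the 9 genes were at least 2-fold lower at day 3, none was 2-fold higher and 2 were under 2-fold. All 9 had a ratio below 0, as 44.9% of all genes had. Of all 12634 genes analysed, 5.62% were at least 2-fold lower and 12.9% at least 2-fold higher. The share of lower genes was 7.5% among the 9467 genes whose day 0 signal was high enough for a 2-fold lower call, a set defined after the values were seen. Higher genes made up 69.6% of all genes past 2-fold, against 58.4% after quantile normalisation and 86.3% with both arrays scaled to their hybridisation spikes. The median log2 ratio, day 3 minus day 0, was −1.34 over the 9 genes and 0.08 over all genes. The 10 genes were chosen with earlier results of these data known, and Rgs16 entered through its day 0 signal alone and could only be lower. The counts, the shares beside them and the median are therefore descriptions. Spike scaling moved the median of all genes to 0.36 and that of the 9 genes to −1.05.

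**Figure D1:**
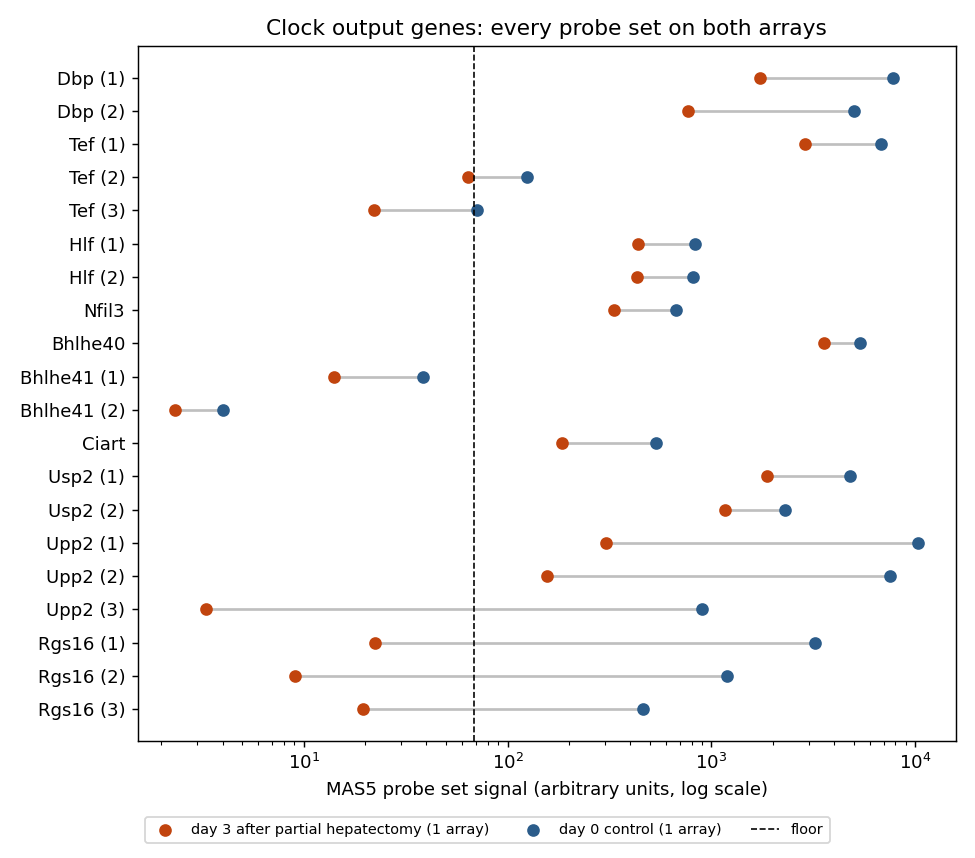
MAS5 signal (log scale) of each of the 20 probe sets of the clock output genes at day 3 after partial hepatectomy and at day 0, 1 array each, with the floor of 68.3 as a dashed line and the probe sets of a gene numbered by mean signal. On every line the day 3 point lies to the left of the day 0 point, and all 3 Rgs16 probe sets cross the floor.

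The array of day 3 also differed from that of day 0 in its control transcripts. The poly-A spikes are bacterial RNAs that enter the sample ahead of the labelling step. At their 5′ end the median log2 ratio was −1.20 (from −1.63 to −0.25, 8 probe sets), and at their 3′ end it was −0.12 (from −0.20 to 0.15, 8 probe sets). The ratios of Rgs16, Upp2 and Dbp lay below the lowest of the 5′ spike ratios, and those of the other 6 genes lay within their range. The part of this shift in the ratios of the 6 genes was not tested. Across all genes the log2 ratio had an SD between probe sets of 0.44 (4380 genes), which covers differences between probe sets of a gene on these arrays and not differences between animals.

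Among the PAR activators, Dbp, the D-box factor with the strongest rhythm in liver, had a signal of 1730 at day 3, against 7797 at day 0. Its second probe set had 768 at day 3, against 4984 at day 0. The probe sets were 4.51-fold and 6.49-fold lower (log2 ratios −2.17 and −2.70), and both passed 4-fold, as 0.76% of all genes did. Of the 10722 genes above the floor on both arrays, 0.569% had a lower ratio than Dbp.

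Tef, the second of these activators, had a signal of 2878 at day 3, against 6820 at day 0, and was 2.37-fold lower. Its other probe sets were dim. One had 63.9 at day 3, under the floor, against 125 at day 0, and was at least 1.83-fold lower. The third had 22.1 at day 3, against 70.7 at day 0, so its bound was close to 1 (at least 1.04-fold). The call of Tef therefore rested on 1 bright probe set. Its log2 ratio of −1.25 became −0.72 as a mean over the 3 probe sets and −0.95 with spike scaling, both under 2-fold. That mean takes in the bounds of the dim probe sets and is itself a bound. Without the floor the dim probe sets had log2 ratios of −0.97 and −1.68.

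Hlf, the third activator, had signals of 436 at day 3 and 829 at day 0 on its main probe set. Its second probe set had 432 at day 3 and 812 at day 0. The probe sets, which carry the same source sequence in the annotation, were 1.90-fold and 1.88-fold lower. Hlf thus lay just outside 2-fold, and it lay inside after quantile normalisation (−1.11) and loess (−1.05).

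The repressors with a ratio differed less than Dbp, and their ratios overlapped those of the other activators. The repressor Ciart (log2 ratio −1.53) was lower than Tef (−1.25) and Hlf (−0.93), and Nfil3 lay between Tef and Hlf. The repressor Bhlhe40 (−0.58) differed less than each activator. Nfil3, the D-box repressor, had a signal of 335 at day 3, against 671 at day 0, on its only probe set. It was 2.004-fold lower, at the threshold itself (log2 ratio −1.003), and the ratio was −0.71 with spike scaling and −0.97 with no floor. When the 75th percentile served as the floor, the day 3 signal lay under it and the ratio was only a bound (−0.66). Activator and repressor messages of the D-box were thus both lower at day 3, with a log2 ratio of −2.17 for Dbp and −1.003 for Nfil3. That difference in ratio exceeded 1 SD of a difference between probe sets of 1 gene, which was 0.62. This is not a test and holds no spread between animals. Nfil3 differed from Tef by 0.24 and from Hlf by 0.08, both less than this SD. Ciart also differed from Tef and from Hlf by less than this SD.

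Bhlhe40 had a signal of 3584 at day 3, against 5355 at day 0, on its only probe set. This bHLH repressor was 1.49-fold lower, the smallest difference among the 9 genes, and did not pass 2-fold under any setting tried. Its log2 ratio was −0.58, and −0.29 with spike scaling. Bhlhe41, its close relative, had signals of 14.1 at day 3 and 38.4 at day 0 on the brighter probe set. The dimmer probe set had 2.34 at day 3 and 3.999 at day 0. Both lay under the floor on both arrays, so no ratio is given.

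Ciart, whose promoter window held the E-box letters at 3 places, had a signal of 184 at day 3, against 533 at day 0. It was 2.89-fold lower on its only probe set (log2 ratio −1.53). With the floor at the 75th percentile, which lies at 424, the difference could only be bounded, at a log2 ratio of −0.33.

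Among the effectors, Usp2, a deubiquitinating enzyme with isoforms of different rhythm in mouse liver, had a signal of 1881 at day 3, against 4760 at day 0. Its second probe set had 1171 at day 3, against 2292 at day 0. The probe sets, which carry the same source sequence in the annotation, were 2.53-fold and 1.96-fold lower. Usp2 was thus under 2-fold (log2 ratio −0.97) when the first, marked as shared between transcripts, was left out. On their main probe sets the other 16 listed ubiquitin-specific proteases lay between log2 ratios of −0.94 and 0.98, with a median of −0.09 (0.20 with spike scaling), and none passed 2-fold. Other probe sets of Usp1 and Usp7 reached 1.34 and 1.21. A single listed gene was past 2-fold lower after quantile normalisation and after loess, and a single one past 2-fold higher with spike scaling and with the mean over probe sets.

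Upp2, a uridine phosphorylase that splits uridine into uracil and ribose 1-phosphate and is found mainly in liver and kidney, had a signal of 303 at day 3, against 10355 at day 0. A second probe set had 157 at day 3, against 7480 at day 0. The third had 3.30 at day 3, under the floor, against 903 at day 0. The first 2 probe sets, which carry the same source sequence in the annotation, were 34.2-fold and 47.7-fold lower. The third was at least 13.2-fold lower. The day 3 signals stayed above the floor on 2 of the 3 probe sets. Upp2 had the third lowest ratio of the 10722 genes above the floor on both arrays. The call held under all 9 other normalisations, floors and probe set choices, with log2 ratios from −5.58 to −4.61. The −4.61 was a bound, at a 75th percentile floor.

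Rgs16, which speeds GTP hydrolysis by G protein alpha subunits and is known in mouse liver to follow feeding and fasting, had a signal of 22.5 at day 3, against 3240 at day 0. Its second probe set had 9.07 at day 3, against 1192 at day 0. The third had 19.5 at day 3, against 463 at day 0. All 3 day 3 signals lay under the floor and all 3 day 0 signals above it. The probe sets were at least 47.5-fold, at least 17.5-fold and at least 6.78-fold lower. These bounds depend on the floor. For the main probe set the log2 ratio was −5.57 as a bound, −2.93 with the floor at the 75th percentile and −7.17 at the 25th, where the day 3 signal was above the floor. All 3 probe sets carry names of the type shared between transcripts (_a_at), though each is annotated to Rgs16 alone. Rgs16 therefore had no value when such probe sets were left out.

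In the order of the log2 ratios, Rgs16 (a bound) and Upp2 came first, then Dbp, Ciart, Usp2, Tef, Nfil3, Hlf and Bhlhe40. Upp2 and Dbp were separated by 2.92 and Dbp and Ciart by 0.64, both more than the 0.62 of a difference between probe sets. The gap between Dbp and Ciart was less than that spread after quantile normalisation (0.37) and loess (0.38). From Ciart to Bhlhe40, neighbours in the order were separated by 0.08 to 0.35, less than this spread.

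**Figure D2:**
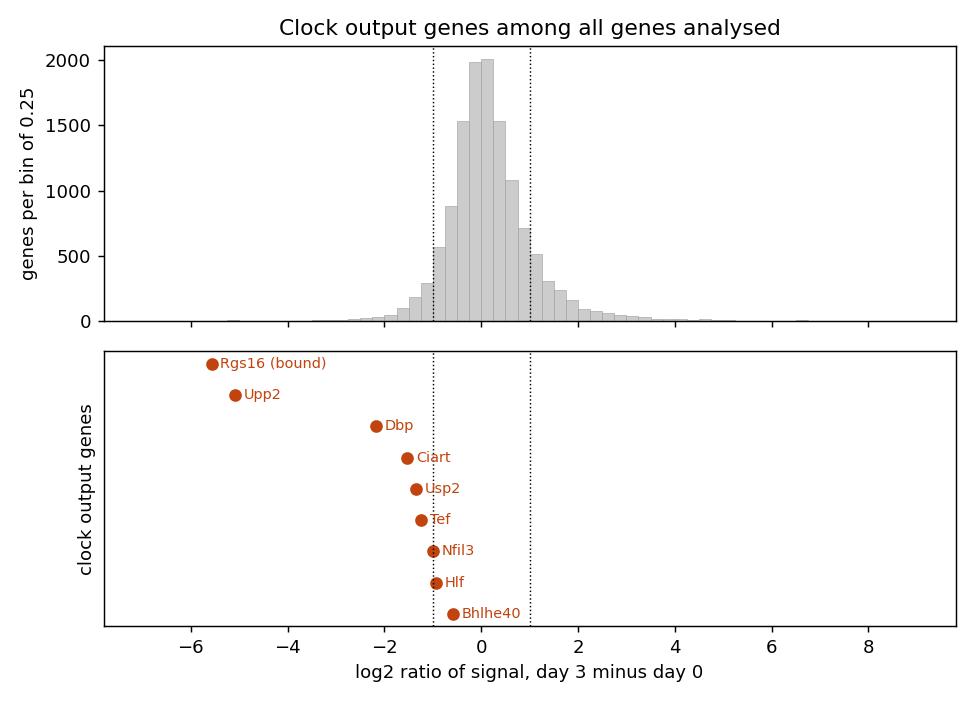
Log2 ratios of signal, day 3 minus day 0, of all 12634 genes analysed (top, genes per bin) and of the 9 clock output genes above the floor (bottom), with dotted lines at 2-fold. The 9 genes lie to the left of 0, from −5.57 for Rgs16, a bound, to −0.58 for Bhlhe40, while the distribution of all genes has its median at 0.08.

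**Figure D3:**
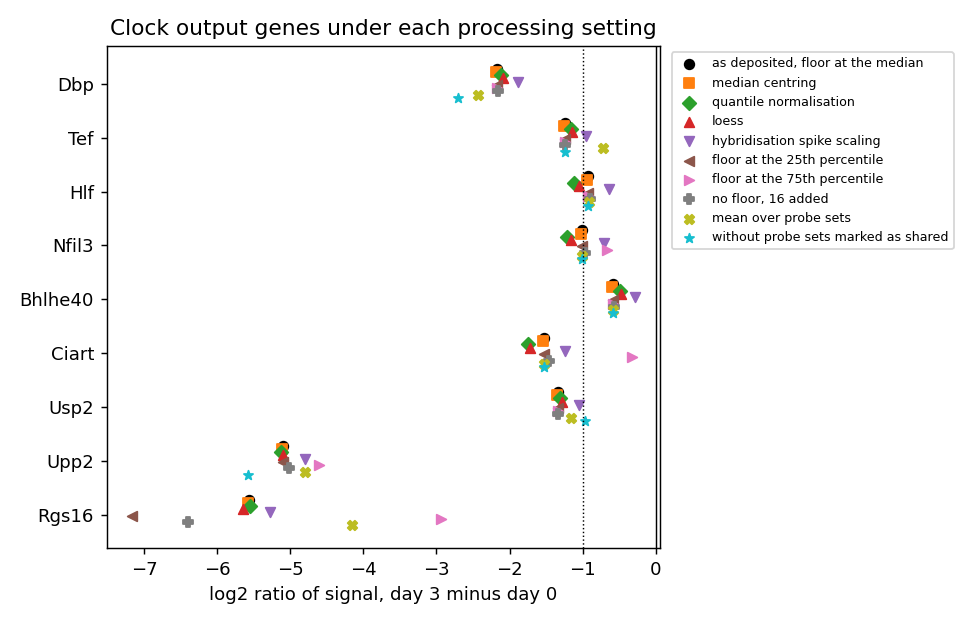
Log2 ratio of each of the 9 clock output genes above the floor, day 3 minus day 0, with the arrays as deposited and under 9 other settings, with a dotted line at 2-fold. Dbp, Upp2 and Rgs16 lie past 2-fold wherever they have a value, Bhlhe40 is under 2-fold in each setting, and Tef, Hlf, Nfil3, Ciart and Usp2 have points on both sides of the line.

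The core clock genes went both ways. Of 17 listed genes 15 had a probe set, 14 were above the floor on at least 1 array, 3 were at least 2-fold higher at day 3, 3 were at least 2-fold lower and 8 were under 2-fold (median log2 ratio −0.29). With spike scaling 4 were higher and 1 was lower. The activator genes Clock and Arntl, which encodes BMAL1, were 2.85-fold and 2.69-fold higher, with signals of 846 and 201 at day 3, against 297 and 74.95 at day 0. Other probe sets of Clock lay at log2 ratios of 0.68 to 1.09. When the floor was the 75th percentile, the day 0 signal of Clock lay under it and the ratio was only a bound (0.996). Arntl had no value at that floor or without probe sets marked as shared. The repressor gene Cry1 was 2.08-fold higher (524 at day 3, against 252 at day 0), though under 2-fold after quantile normalisation (0.82) and loess (0.88). At a 75th percentile floor its ratio was only a bound (0.31), its day 0 signal being under that floor. The repressor gene Cry2 was 3.16-fold lower (288 at day 3, against 909 at day 0). Nr1d1, which encodes REV-ERB alpha, a repressor of Arntl and Nfil3, was 2.37-fold lower (173 at day 3, against 409 at day 0). Nr1d2, which encodes REV-ERB beta, was 2.27-fold lower (2696 at day 3, against 6132 at day 0), with another probe set at −0.76. With spike scaling the ratios of Nr1d1 and Nr1d2 were −0.95 and −0.89, under 2-fold. The period genes encode partners of the cryptochromes. They did not pass 2-fold on the arrays as deposited, though Per2 did with spike scaling (1.15). The log2 ratio was −0.30 for Per1, 0.86 for Per2 and −0.89 for Per3, with other probe sets of Per2 at 0.09 to 0.55 and of Per3 at −1.40 to −0.24. Clock, Arntl and Cry1 were thus higher at day 3 on arrays on which all 9 analysed clock output genes were lower. Bmal1 target genes such as Dbp and Nr1d1 are known to peak at other hours than Arntl, and the hour of collection cannot be told apart from the day.

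Of 15 listed liver targets of the PAR factors, 12 were analysed, 4 were at least 2-fold lower at day 3, 1 was higher and 7 were under 2-fold (median log2 ratio −0.66). The lower genes included the cytochrome P450 gene Cyp2c50 (7.02-fold), the fatty acid receptor gene Ppara (3.58-fold) and the carboxylesterase gene Ces2a (2.99-fold). Cyp3a13 was 2.89-fold higher. Alas1, the first enzyme of heme synthesis, which was not picked by the naming rule, had a log2 ratio of −0.63.

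Rgs16 was set beside carbohydrate-responsive genes and beside its own family. Of 12 carbohydrate-responsive genes 11 were analysed, 8 were at least 2-fold lower at day 3, none was higher and 3 were under 2-fold (median log2 ratio −1.58). With spike scaling 6 were lower and the median was −1.29. As a mean over probe sets the median was −1.24. Thrsp, a regulator of lipid synthesis, was 9.50-fold lower, Txnip, a glucose-induced inhibitor of thioredoxin, 6.40-fold lower, and G6pc, which releases glucose from its phosphate, 4.88-fold lower. Among the other genes of the R4 family of RGS proteins, 5 of 8 were analysed, and the median log2 ratio was 0.82. Rgs2 was 3.73-fold higher at day 3, with other probe sets from −0.48 to 2.0025, and Rgs4 was 3.61-fold higher. The second Rgs4 probe set had a log2 ratio of 0.95. Rgs3 was 2.04-fold lower, with other probe sets from −1.96 to 0.60 and with ratios under 2-fold in 4 settings. At a 75th percentile floor, which is among the 4, the ratio was only a bound.

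Upp2 was set beside other genes of uridine and pyrimidine handling. Of 15 listed genes 14 were analysed, 2 were at least 2-fold higher at day 3, 1 was lower and 11 were under 2-fold (median log2 ratio −0.08, and 0.21 with spike scaling). Upp1, the other uridine phosphorylase gene, was 2.13-fold higher, with signals of 240 at day 3 and 113 at day 0, the opposite direction to Upp2. Its log2 ratio of 1.09 was 0.84 after quantile normalisation, 0.91 after loess and 0.99 with no floor. Ctps, the enzyme that makes CTP from UTP, was 3.25-fold higher (805 at day 3, against 248 at day 0). Slc29a1, a nucleoside transporter, was 2.25-fold lower (1933 at day 3, against 4349 at day 0), and its log2 ratio was −0.88 with spike scaling.

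**Figure D4:**
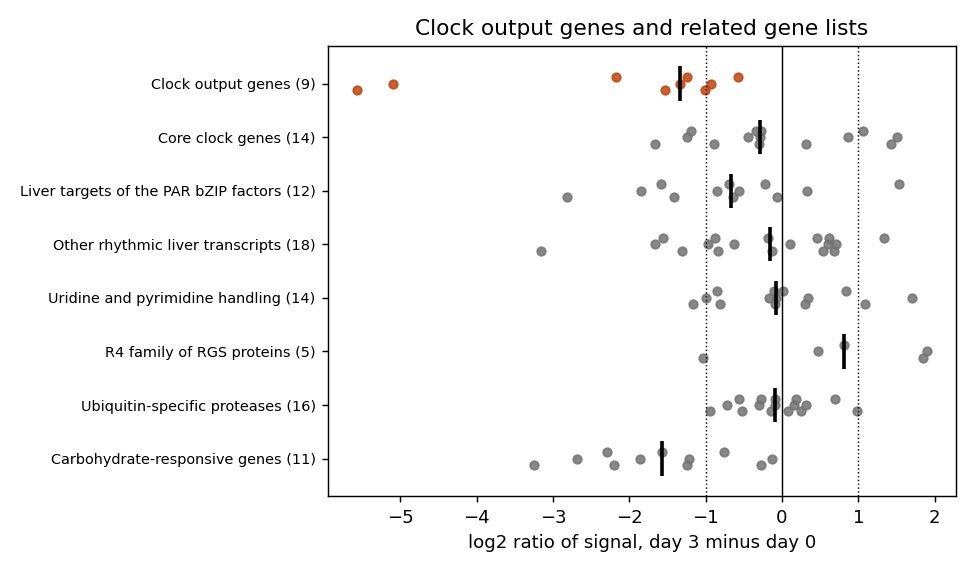
Log2 ratio of signal, day 3 minus day 0, of each analysed gene of 8 lists (number of genes in brackets), with a vertical bar at the median of each list and dotted lines at 2-fold. The clock output genes lie below 0, the carbohydrate-responsive genes have a median of −1.58, and the core clock genes lie on both sides.

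The cell makeup of the samples was checked with marker genes. In whole liver, fewer cells of a type and less RNA per cell cannot be told apart. Of 8 hepatocyte markers none passed 2-fold on its main probe set. The median log2 ratio was −0.34, and the summed signal was 251604 at day 3 and 316621 at day 0. Other probe sets of the hepatocyte marker Hnf4a lay at log2 ratios from −1.90 to −0.24. Markers of other cells moved with the day: 5 of 8 macrophage markers (summed signal 22205 at day 3 and 8131 at day 0), 5 of 8 stellate cell and fibroblast markers (29560 at day 3 and 10603 at day 0), 3 of 5 cholangiocyte markers (1112 at day 3 and 276 at day 0) and 2 of 4 analysed neutrophil markers (1387 at day 3 and 398 at day 0) were at least 2-fold higher. All 10 cell division markers were at least 2-fold higher (40666 at day 3 and 1223 at day 0), none of 8 endothelial markers passed 2-fold (7797 at day 3 and 10921 at day 0), and 2 of 3 erythroid markers were lower (2987 at day 3 and 9293 at day 0). T and NK cell markers were mostly under the floor on both arrays, Cd3d, Cd3e, Cd3g and Cd4 among them, and their summed signal was 303 at day 3 and 324 at day 0. Of 3 analysed B cell markers 1 was lower (367 at day 3 and 1063 at day 0), with Cd79a and Pax5 under the floor, as were the neutrophil genes Camp, Mpo and Cxcr2. Other probe sets of Ighm, the lower B cell marker, lay at log2 ratios from −1.93 to 0.43. The second probe set of Epcam, a higher cholangiocyte marker, lay at −0.06. Among the erythroid markers, Alas2 made up most of the summed signal (2783 at day 3 and 8932 at day 0). Slc4a1 went the other way, with a log2 ratio of 0.54 as a bound, and Hba-a1 was under the floor on both arrays. The part of these shifts in the ratios of the clock output genes was not tested.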

How the data were processed

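Per the submitters' processing notes, the authors used GCOS and MAS5 to make the deposited values, which are linear intensities per probe set. Not given in the sources used here were versions, scaling target and genome build. Without the top and bottom 2% of probe sets, each array had a mean of 500.004. Detection calls were not used, and with 1 array a day their number alone limits the precision.

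The array annotation supplied the names: 34945 probe sets had 1 gene symbol, 932 several and 9160 none, besides 64 control probe sets, and 34741 matched RefSeq (GRCm38.p6) by Entrez ID with 0 symbols changed. Array medians were 68.3 at day 3 and 67.6 at day 0. Signals under the floor were set to it and log2 was taken, and a probe set under it on both arrays gave no ratio. Where 1 array was under the floor the fold is a lower bound. A gene was called at 2-fold, without a test. Tried as alternatives were loess (fraction 0.3), quantile normalisation, median centring, scaling to 18 hybridisation spike probe sets, floors at the 25th and 75th percentile, 16 added without a floor, the mean over probe sets, leaving out probe sets named as shared, and calls at 1.5-fold and 4-fold. Names ending in _s_at, _x_at or _a_at counted as shared. Simulated data with known ratios were used to check the steps. Python 3.11.15, pandas 2.3.3 and statsmodels 0.14.6 were used.

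All clock output genes are named, and of each list up to 3 genes farthest in each direction past 2-fold, plus Upp1 and 7 core clock genes. The members and lists were chosen with earlier results of these data known. Promoters came from RefSeq.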

Additional observations from a re-analysis of the deposited data

How the results depend on the processing

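With 9 other normalisations, floors and probe set choices, 80 log2 ratios of the 9 genes with a ratio were computed, and none changed sign. Of these, 71 moved by less than the SD between probe sets. The number of clock output genes at least 2-fold lower was 5 to 8 across these settings, with 5 after spike scaling, at a 75th percentile floor and without probe sets marked as shared, and 8 after quantile normalisation and after loess. It was 8 at 1.5-fold and 3 at 4-fold (Dbp, Upp2 and Rgs16), and none was higher at any threshold. Their median log2 ratio was between −1.35 and −1.05. These counts and medians take in Bhlhe41 at a 25th percentile floor and without a floor, where it also had a ratio. The 80 ratios do not. Of the genes in the 7 related lists, 21 were lower and 9 higher at 2-fold, 35 and 18 at 1.5-fold, and 6 and 0 at 4-fold. Spike scaling took the median spike log2 ratio of −0.29 from each day 3 log2 signal, which raised the ratios of genes above the floor. With it 15 of the list genes were lower and 13 higher. Why the spikes differed between the arrays was not tested. At 2-fold 2 of the list genes were higher at a 75th percentile floor, at which fewer of them were analysed and more ratios were bounds. Among the clock output genes, the ratios of Nfil3, Ciart, Upp2 and Rgs16 were bounds at that floor. The share of all genes called lower was 11.2% at a 25th percentile floor, 9.73% without a floor, 3.1% after spike scaling and 5.28% at a 75th percentile floor (1834, 1770, 380 and 406 genes, against 710). Higher genes numbered 2401 after spike scaling and 574 at a 75th percentile floor, against 1625. No paired analysis was possible because each day had 1 array. Signals near the floor limit Rgs16, Bhlhe41 and the dim probe sets of Tef and Upp2.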

Other observations

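Other transcripts known to be rhythmic in mouse liver showed no common direction. Of 20 listed genes 18 were analysed, 4 were at least 2-fold lower at day 3, 1 was higher and 13 were under 2-fold. Their median log2 ratio was −0.16, and 0.14 with spike scaling. Lpin1, a phosphatidate phosphatase and lipid regulator, was 8.94-fold lower, with signals of 404 at day 3 and 3609 at day 0. Cirbp, a cold-inducible RNA-binding protein, was 3.18-fold lower (243 at day 3, against 772 at day 0). At a 75th percentile floor its log2 ratio of −0.86 was only a bound. Gys2, the liver glycogen synthase, was 2.94-fold lower (2180 at day 3, against 6418 at day 0). Tfrc, the transferrin receptor, was 2.53-fold higher (2671 at day 3, against 1057 at day 0).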
